A study of Mus musculus with 4 samples.

Results

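The genes described here are 34 genes of fat cells, chosen with earlier results of these data known. They were taken by symbol for their known part in adipocyte identity, fat storage and fat breakdown. Of these, 32 were matched to 55 of the 41174 probes on the arrays, under their present or an older name. Pck1 and Adrb3 were not analysed here, and Ucp1 was too dim to be tested, which left 31 of the 17555 genes tested. The data were 4 one-colour arrays of full-thickness back skin from male mice aged 42 days, all labelled as telogen (hair follicles at rest). The first group, Fgf18 cKO (called cKO below), lacks the growth factor gene Fgf18 in keratin 5-positive epithelial cells, and the second (WT) was C57BL/6. Both groups carry C57BL/6 as their strain label, and the labels do not say whether WT mice carried the floxed allele or a Cre transgene, so effects of these and of the deletion cannot be told apart. Each group was a single pool of polyA RNA from 3 mice by its labels, hybridised to 2 arrays. Every SD, SE and p-value below therefore measures the spread between duplicate arrays of 1 pool, and the tests compare 2 RNA pools, not the genotypes.

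An adipocyte stores fatty acids as triglyceride in a lipid droplet and releases them again when fuel is needed. Storage runs from glycerol 3-phosphate and activated fatty acids through a chain of acyltransferases, and lipases undo it in steps. PPAR-gamma and the C/EBP factors switch these genes on, and the cell reports its fat content through hormones such as leptin. In back skin the adipocytes form a layer under the dermis that thickens and thins with the hair cycle, and sebaceous gland cells in the same tissue share part of this machinery.

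Of the spots on an array, 64.6% and 69.1% were well above background in cKO and 63.1% and 62.1% in WT. Outlier spots numbered 126 and 74 in cKO and 120 and 143 in WT. The 75th percentile of the processed signal of an array, by which its values were divided (scaled signal below), was 1403 and 1453 in cKO, against 1271 and 1316 in WT. This percentile was 0.14 higher in cKO on the log2 scale. The size of a change, and its sign near 0, depended on the normalization. For Plin2 the log2 change was -0.20 as reported and -0.04 with quantile normalization. All 31 genes tested were well above background on all 4 arrays, as were the 6 genes taken as defining an adipocyte (Adipoq, Plin1, Cidec, Lep, Retn and Cfd). Fgf18 itself had scaled signals of 3.63 and 3.64 in cKO and 4.52 and 4.62 in WT, a log2 change of -0.33 that was under the 1.5-fold threshold. The deleted exons are not stated in the labels, and the epithelium is 1 tissue of several in the sample, so this probe does not check the genotype. In whole skin, fewer adipocytes, less RNA per adipocyte and a change in other cells that express the same genes cannot be told apart.

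Part of the fat storage programme was lower in the cKO pool, and the change was uneven. A gene was called at a limma adjusted p under 0.05 over all genes tested and a change of at least 1.5-fold. By this rule 7 of the 31 genes fell (Lep, Retn, Slc2a4, Gpd1, Agpat2, Dgat2 and Pparg) and 1 rose (Angptl4), where 4.82% of all genes fell and 5.67% rose. The median log2 change of the 31 genes was -0.28, beside -0.05 for all genes tested. With quantile normalization the median was -0.13, beside -0.02 for all genes, and 5 of the 31 were called lower. With normexp background correction and quantile normalization it was -0.12, beside -0.01, and 4 were called lower. Without regard to fold size, 19 had a lower and 5 a higher value at an adjusted p under 0.05, a rule that 33.6% of all genes met as lower and 22.2% as higher. At 2-fold, 1 gene fell (Gpd1) and 1 rose (Angptl4), beside 0.854% and 2.93% of all genes. Both cKO arrays lay below both WT arrays for 22 genes and above them for the other 9. The same held for 48.1% (below) and 33.8% (above) of all genes, so this separation alone does not set the adipocyte genes apart.

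**Figure D1:**
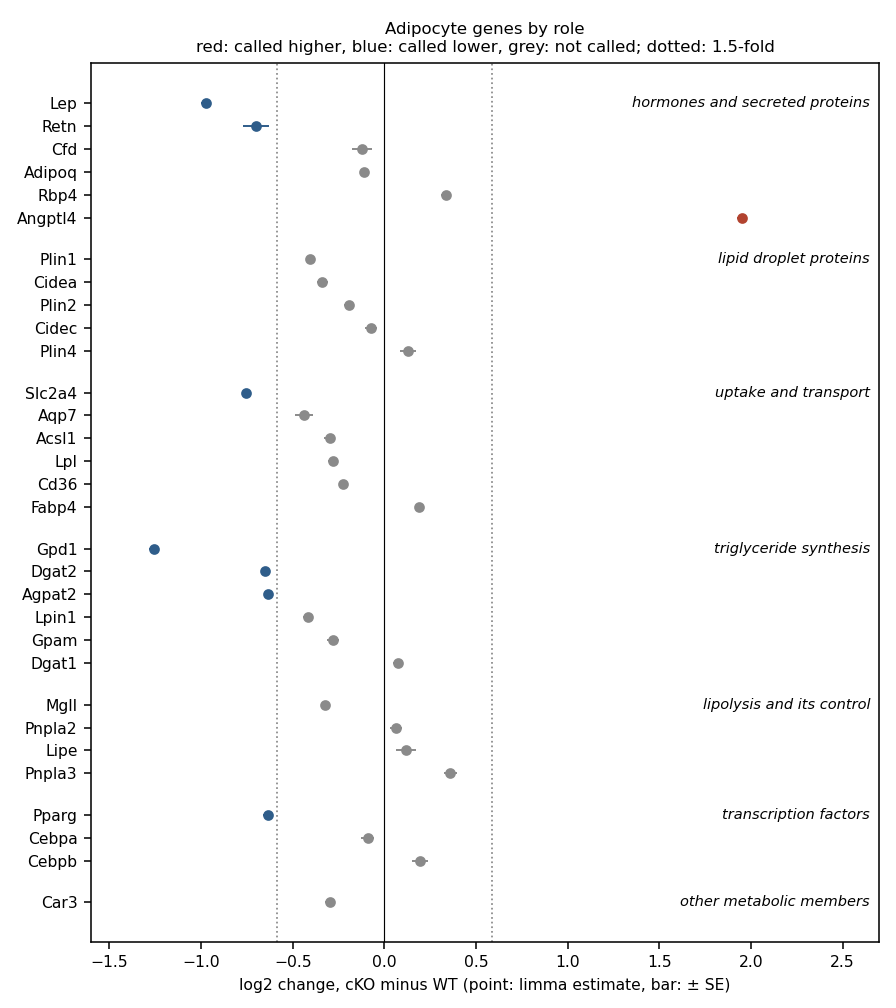
Log2 change (cKO minus WT, x axis) of the 31 adipocyte genes tested, grouped by role; bars are the limma SE and dotted lines mark 1.5-fold. Gpd1 lies lowest at -1.26 and Angptl4 highest at 1.95, while the other 29 lie between -0.97 and 0.36.

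Among called genes, 4 had a promoter sequence in the RefSeq table (build GRCm38.p6): Lep, Pparg, Retn and Agpat2. The 250 bases before their start sites are shown because each of these genes was called lower and because leptin and Pparg are known C/EBP targets. Whether the genes share a regulator was not tested. Capitals mark matches to the C/EBP core TTGCNNAA on either strand.
Lep, chr6:29059971-29060220, + strand: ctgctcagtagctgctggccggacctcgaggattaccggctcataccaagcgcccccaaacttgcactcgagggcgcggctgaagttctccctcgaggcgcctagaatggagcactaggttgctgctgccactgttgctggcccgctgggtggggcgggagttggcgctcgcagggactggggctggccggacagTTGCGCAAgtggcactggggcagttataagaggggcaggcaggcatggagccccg
Pparg, chr6:115421816-115422065, + strand: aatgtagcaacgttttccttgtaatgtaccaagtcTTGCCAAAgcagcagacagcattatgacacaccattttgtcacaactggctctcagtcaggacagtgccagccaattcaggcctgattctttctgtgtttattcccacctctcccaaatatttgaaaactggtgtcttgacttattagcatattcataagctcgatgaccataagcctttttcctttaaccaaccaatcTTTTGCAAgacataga
Retn, chr8:3655520-3655769, + strand: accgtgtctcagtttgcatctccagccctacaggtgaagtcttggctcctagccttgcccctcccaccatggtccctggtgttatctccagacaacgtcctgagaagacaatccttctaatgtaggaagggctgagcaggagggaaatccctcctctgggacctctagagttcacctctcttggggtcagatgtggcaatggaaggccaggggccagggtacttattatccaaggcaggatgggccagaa
Agpat2, chr2:26604418-26604667, - strand: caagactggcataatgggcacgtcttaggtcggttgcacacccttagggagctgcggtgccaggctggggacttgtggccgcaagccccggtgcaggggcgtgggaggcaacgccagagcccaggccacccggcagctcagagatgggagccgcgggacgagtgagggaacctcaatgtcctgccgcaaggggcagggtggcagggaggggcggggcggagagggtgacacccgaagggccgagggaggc
Pparg has 3 such windows, and the one shown was picked after the search as the only one of them with a match. The match in Lep was at position -55 from the start site, and those in Pparg were at -215 and -16. No match was found in the windows of Retn and Agpat2. The motif was present in 9.56% of all 32851 RefSeq windows of this length and in 5 of the 31 windows of tested adipocyte genes, which belonged to 5 of 22 genes with a window. Its other carriers were Cidec, Plin1 and Rbp4, none of which was called. The PPAR-RXR direct repeat of spacing 1 (consensus searched on both strands) was found in none of the 31 windows and in 0.338% of all windows. A match in letters is not a measured binding site, and its absence from 250 bases says nothing of the factor.

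The hormones and secreted proteins went different ways. Leptin (Lep), the hormone that signals the size of the fat stores, had scaled signals of 0.108 and 0.110 in cKO and 0.215 and 0.213 in WT. It was the dimmest hormone probe, yet duplicates lay close and the groups stood far apart. Lep fell 1.97-fold (log2 -0.97, SE 0.027, limma adjusted p = 0.00093; probe at chr6:29023234-29023293 on mm9). Resistin (Retn), a small adipocyte hormone of mice that counters insulin, had 8.34 and 7.81 in cKO and 13.8 and 12.5 in WT. The duplicates of Retn spread more than those of any other member, but the gap between groups (0.58 on the log2 scale) was wider than the larger gap between duplicates (0.14). Retn fell 1.63-fold (log2 -0.70, SE 0.070, adjusted p = 0.0056), and its second probe gave -0.71. Retn was under 1.5-fold after normexp background correction with quantile normalization (log2 -0.57).

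Adiponectin and adipsin, both abundant, differed little between the pools. Adiponectin (Adipoq), an insulin-sensitising hormone made almost only by adipocytes, had scaled signals of 25.6 and 25.8 in cKO and 27.7 and 27.9 in WT. Its log2 change was -0.11 (limma adjusted p = 0.025). Adipsin (Cfd), a complement factor secreted in bulk by fat, had 219 and 227 in cKO and 232 and 253 in WT (log2 -0.12, adjusted p = 0.15). Under normexp and quantile normalization these 2 changes had the other sign (0.02 and 0.08), so no direction is given for them. Adipoq is still among the 19 genes counted above as lower at any fold, a count made under the reported processing. Rbp4, the plasma carrier of retinol, had 9.79 and 9.94 in cKO and 7.80 and 7.84 in WT. Its log2 change of 0.33 (adjusted p = 0.0032) was under 1.5-fold.

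Angptl4 moved against the other called genes and by more than any of them. This secreted protein blocks lipoprotein lipase and is induced by PPARs and by fasting in fat. Its scaled signals were 27.7 and 28.2 in cKO and 7.15 and 7.30 in WT. Both cKO arrays were far above both WT arrays. Angptl4 rose 3.87-fold (log2 1.95, SE 0.026, adjusted p = 0.00029; probe at chr17:33911880-33911939 on mm9), and 1.30% of all genes had a change as high or higher. Lpl, the lipase it inhibits, had 17.7 and 17.6 in cKO and 21.7 and 21.2 in WT, a log2 change of -0.28 that was not called.

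**Figure D2:**
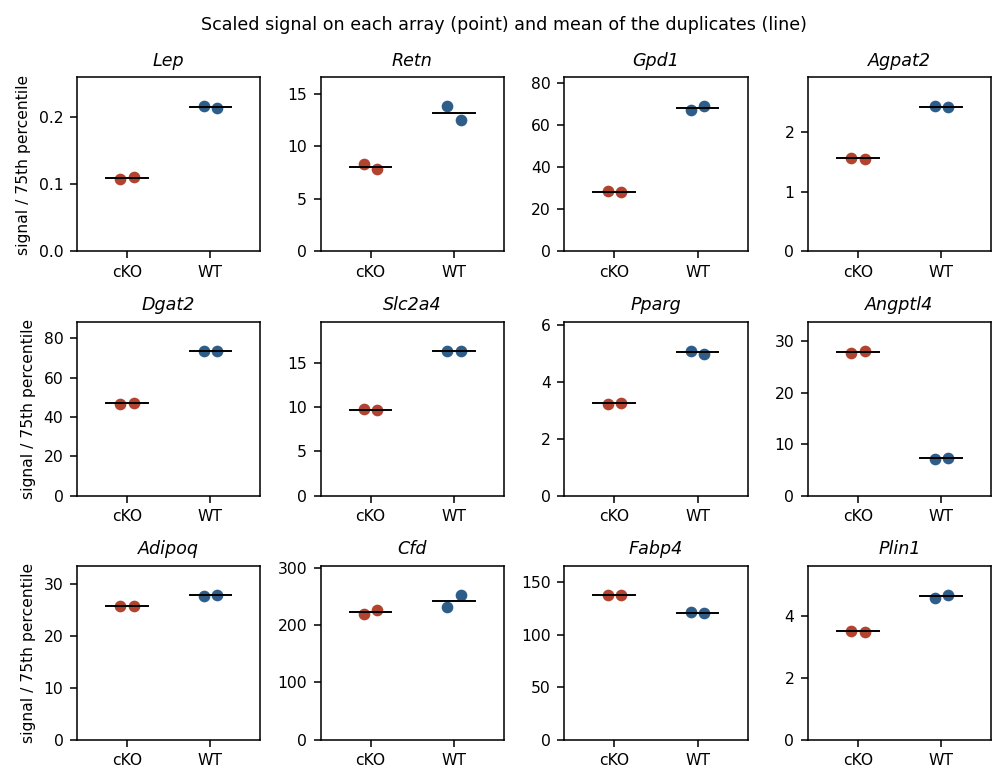
Signal of the 8 called genes and of Adipoq, Cfd, Fabp4 and Plin1 on each array, divided by the array's 75th percentile (y axis, from 0); points are arrays and lines are means of duplicates. The 2 cKO arrays of Gpd1 sit near 28 against 67.1 and 68.8 in WT, whereas the Adipoq points of both groups lie between 25.6 and 27.9.

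Triglyceride synthesis held the largest fall. Gpd1, which makes glycerol 3-phosphate for the backbone of triglyceride, had scaled signals of 28.5 and 28.4 in cKO and 67.1 and 68.8 in WT. It fell 2.39-fold (log2 -1.26, SE 0.026, adjusted p = 0.00064; probe at chr15:99555334-99555393 on mm9), and 0.587% of all genes had a change as low or lower. A second, dimmer Gpd1 probe gave a log2 change of -1.43, with 0.285 and 0.249 in cKO and 0.717 and 0.716 in WT. Dgat2, which adds the last fatty acid, had 46.5 and 47.3 in cKO and 73.4 and 73.7 in WT. Dgat2 fell 1.57-fold (log2 -0.65, SE 0.024, adjusted p = 0.0013), and its other probes gave -0.77 and -0.78. Agpat2, the acyltransferase lost in a human lipodystrophy, had 1.57 and 1.55 in cKO and 2.43 and 2.41 in WT. It fell 1.55-fold (log2 -0.63, SE 0.023, adjusted p = 0.0013), with -0.70 from its second probe.

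The other enzymes of this chain were not called. Lpin1, the phosphatidate phosphatase, had a log2 change of -0.42, and Gpam, the mitochondrial enzyme of the first acylation, had -0.28. Dgat1, the second enzyme of the final step, had scaled signals of 4.29 and 4.36 in cKO and 4.12 and 4.10 in WT. Its log2 change of 0.07 stood beside the fall of Dgat2, and the difference between these 2 genes was not tested. In all, 3 of 6 genes tested in this role fell, beside 4.82% of all genes. The median of the 6 was -0.53 and lay between -0.57 and -0.42 over all settings tried. Dgat2 was not called with quantile normalization (-0.45) or with normexp and quantile normalization (-0.45).

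Of the genes for uptake and transport, 1 of 6 fell, beside 4.82% of all genes. Slc2a4, the insulin-responsive glucose transporter GLUT4 of fat and muscle, had scaled signals of 9.76 and 9.75 in cKO and 16.4 on both WT arrays. The duplicates were almost equal and the groups were well apart. Slc2a4 fell 1.69-fold (log2 -0.75, SE 0.022, adjusted p = 0.00098; probe at chr11:69756073-69756132 on mm9). The fatty acid genes gave smaller values. The log2 change was -0.22 for Cd36, the fatty acid translocase, -0.30 for Acsl1, which activates fatty acids, and -0.44 for the glycerol channel Aqp7. Fabp4, the adipocyte fatty acid-binding protein, had 138 on both cKO arrays and 122 and 120 in WT, a log2 change of 0.19 (adjusted p = 0.0080). All 3 Fabp4 probes gave values above 0, between 0.14 and 0.19.

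None of the 5 lipid droplet proteins was called. Perilipin 1 (Plin1), which guards the droplet of the fat cell against lipases, had scaled signals of 3.53 and 3.496 in cKO and 4.60 and 4.70 in WT. Its log2 change of -0.40 (adjusted p = 0.0027) was the lowest of this role. Cidec, which fuses droplets into a single large one, had 53.3 and 52.5 in cKO and 54.4 and 56.9 in WT. Its log2 change of -0.07 (adjusted p = 0.16) had the other sign with quantile normalization (0.13) and with normexp and quantile normalization (0.13). Cidea, a related protein also found in sebaceous glands and brown fat, had -0.34, the widely expressed Plin2 had -0.20, and Plin4 had 0.13.

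The lipolysis genes were likewise not called. Pnpla2 (adipose triglyceride lipase), which removes the first fatty acid, had scaled signals of 16.8 and 16.5 in cKO and 15.6 and 16.3 in WT. Lipe (hormone-sensitive lipase), which acts next, had 1.39 and 1.31 in cKO and 1.198 and 1.29 in WT. Their log2 changes were 0.06 and 0.12 (adjusted p = 0.18 and 0.15), and for both the gap between groups was narrower than that between duplicates. A second Lipe probe gave -0.02. Mgll, which cleaves the last fatty acid, had 33.4 and 33.2 in cKO and 41.6 and 41.8 in WT (log2 -0.33), and Pnpla3, a lipase-family protein that follows lipogenic genes, had 2.83 and 2.96 in cKO and 2.27 and 2.23 in WT (log2 0.36). The median of the 4 tested was 0.09, between 0.05 and 0.16 over all settings tried. Differences between the roles were not tested.

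Pparg, the receptor that drives adipocyte differentiation, was the called gene among the transcription factors. Its scaled signals were 3.23 and 3.25 in cKO and 5.09 and 4.96 in WT, with no overlap. Pparg fell 1.55-fold (log2 -0.63, SE 0.027, adjusted p = 0.0016; probe at chr6:115440213-115440272 on mm9). It was under 1.5-fold with quantile normalization (-0.58) and with normexp and quantile normalization (-0.56). Its partner Cebpa had 6.26 and 6.27 in cKO and 6.4998 and 6.84 in WT, a log2 change of -0.09 from the brightest probe and -0.41 from the other. Cebpb, an early factor of adipogenesis, had 10.1 and 10.6 in cKO and 8.89 and 9.21 in WT (log2 0.19, not called). Sebaceous gland cells express Pparg too, so this probe does not report fat cells alone.

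Of the remaining genes, Car3, a carbonic anhydrase abundant in fat and slow muscle, had scaled signals of 95.2 and 93.3 in cKO and 115 and 117 in WT (log2 -0.30). Ucp1, the uncoupling protein of brown fat, had 0.0143 and 0.0215 in cKO and 0.0217 and 0.0184 in WT. It was well above background on 1 of the cKO arrays and on neither WT array, so no change is given.

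Where a gene had several probes well above background, they mostly told the same story. This was so for 17 genes, of which 16 had probes with changes of one sign, Lipe being the exception. The median spread between probes of a gene was 0.07 on the log2 scale and the widest was 0.32, for Cebpa. Only Cebpa and Car3 (-0.30 and -0.51) exceeded 0.2. For Gpd1, Retn, Dgat2 and Agpat2 all probes passed 1.5-fold. The other called genes (Lep, Slc2a4, Pparg and Angptl4) had 1 probe each, so their calls had no such check.

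**Figure D3:**
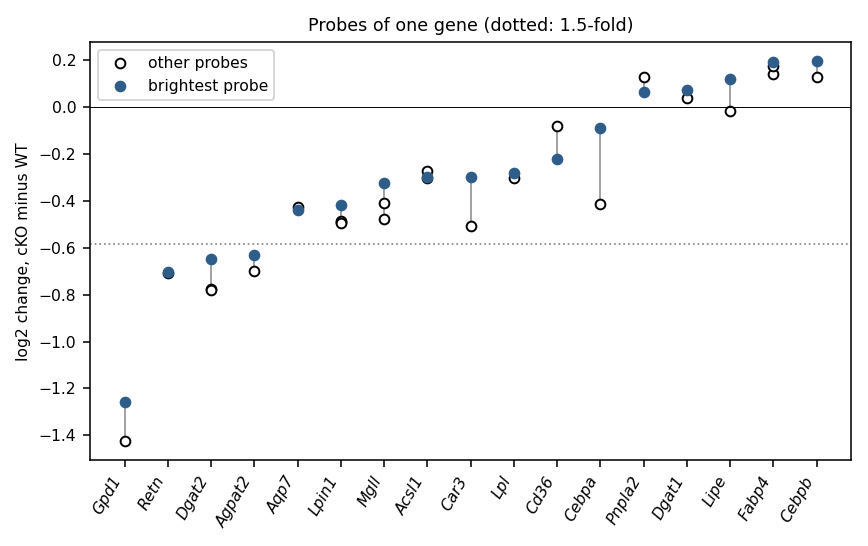
Log2 change (cKO minus WT, y axis) of every probe well above background for the 17 adipocyte genes with several; filled points are the brightest probe, open points the others, and the dotted line is 1.5-fold lower. Probes of Gpd1, Retn, Dgat2 and Agpat2 all lie below that line.

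A ratio of 2 genes on the same array does not depend on how arrays are scaled. Adipoq was taken as the denominator after its values had been seen, because it is an adipocyte gene that differed little. The 8 called genes were known as well, so their ratios restate the changes above on a scale free of array scaling and are given as a description, with no test. Relative to Adipoq, Gpd1 was 2.21-fold lower in cKO, Lep 1.82-fold, Slc2a4 1.56-fold, Retn 1.504-fold, Dgat2 1.45-fold, and Agpat2 and Pparg 1.43-fold each. Angptl4 was 4.19-fold higher relative to Adipoq. The ratios of Cidec, Cfd and Cebpa to Adipoq overlapped between groups, with log2 changes of 0.04, -0.01 and 0.02. Those of all other genes tested did not overlap. Relative to Adipoq, Plin1 was lower in cKO (log2 -0.29) and Fabp4 higher (0.30).

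Other genes of fat metabolism were taken from 5 lists of genes with known roles. The lists were chosen with earlier results of these data known, so their counts are a description and not independent support. Of 93 tested, 12 fell (12.9%) and 2 rose (2.15%), beside 4.82% and 5.67% of all genes. The median log2 change of the 93 was -0.18. Among secreted proteins 4 of 17 fell. Angptl8, an insulin-induced protein of fat and liver, had scaled signals of 0.127 and 0.126 in cKO and 1.30 and 1.32 in WT and fell 10.4-fold (adjusted p = 0.00011). Agt (angiotensinogen), Sfrp5 (a Wnt antagonist of fat) and Sncg (gamma-synuclein) fell 1.84-fold, 1.69-fold and 1.51-fold. Sfrp5 was dim, with scaled signals of 0.041 and 0.047 in cKO and 0.070 and 0.077 in WT (SE 0.097 on the log2 scale). With normexp and quantile normalization Sfrp5 and Sncg had log2 changes of -0.46 and -0.56 and were not called, nor was Sncg when the scaling used only probes well above background everywhere (-0.56).

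Among 13 droplet and storage genes, 3 fell and 1 rose, beside 4.82% and 5.67% of all genes. G0s2, which inhibits the lipase Pnpla2, had scaled signals of 1.53 and 1.49 in cKO and 4.24 and 4.43 in WT and fell 2.87-fold (log2 -1.52, SE 0.036, adjusted p = 0.00077). Fitm1 and Fitm2, which partition triglyceride into droplets, fell 2.01-fold and 1.64-fold. Fitm1 is known mainly from skeletal muscle, and Fitm2 was under 1.5-fold with normexp and quantile normalization (-0.57). Plin5, a perilipin of oxidative tissues, rose 1.53-fold and was not called without WT replicate 1 (log2 0.57).

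In glyceride synthesis and uptake, 2 of 23 genes fell (8.70%) and 1 rose (4.35%), shares near the 4.82% and 5.67% of all genes. Pdk4, a kinase that spares glucose during fasting, had scaled signals of 11.2 on both cKO arrays and 0.886 and 0.866 in WT. It rose 12.8-fold (log2 3.68, SE 0.026, adjusted p = 0.00011). Thrsp, a regulator of lipid synthesis, fell 4.13-fold, and Pcx (pyruvate carboxylase), which feeds lipid synthesis, fell 1.68-fold. None of 20 genes for control of lipolysis and insulin action was called; the brightest, Prkaca (the catalytic subunit of protein kinase A) and Irs1 (an insulin receptor substrate), had log2 changes of -0.26 each. Their limma adjusted p-values were 0.0061 and 0.0067, and the median of the 20 was -0.03. Without a fold threshold, calls over all 5 lists (93 genes tested) numbered 48 lower and 17 higher. By the same rule 33.6% of all genes were lower and 22.2% higher.

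Among 20 adipogenic regulators, 3 fell (15%), beside 4.82% of all genes. Rxrg, a retinoid X receptor of the family that pairs with PPAR-gamma, fell 1.88-fold, with 2.21 and 2.13 in cKO and 4.03 and 4.11 in WT. Mlxipl, the carbohydrate-responsive activator ChREBP, fell 1.64-fold, and Srebf1, the insulin-responsive activator of lipogenesis, 1.53-fold. The call for Srebf1 was lost with normexp and quantile (-0.47), with quantile normalization (-0.49) and when scaled on probes well above background (-0.58). Of 13 preadipocyte genes 1 fell (7.69%), Ccn5 (1.68-fold), a share near the 4.82% of all genes. The median of this list was -0.22.

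Genes linked to brown and beige fat were mixed, with 3 of 10 lower and 1 higher, beside 4.82% and 5.67% of all genes. Zic1, a factor of brown fat that is also known from muscle lineages, fell 1.81-fold. The respiratory subunits Cox8b and Cox7a1, which skeletal muscle shares with brown fat, fell 1.66-fold and 1.52-fold. Neither subunit was called with normexp and quantile normalization (-0.50 and -0.43) or with quantile normalization (-0.53 and -0.43). Cox7a1 was also not called without WT replicate 2 (-0.58) or when scaled on probes well above background (-0.57). Tbx1, a beige fat marker that is also a hair follicle stem cell gene, rose 1.70-fold.

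**Figure D4:**
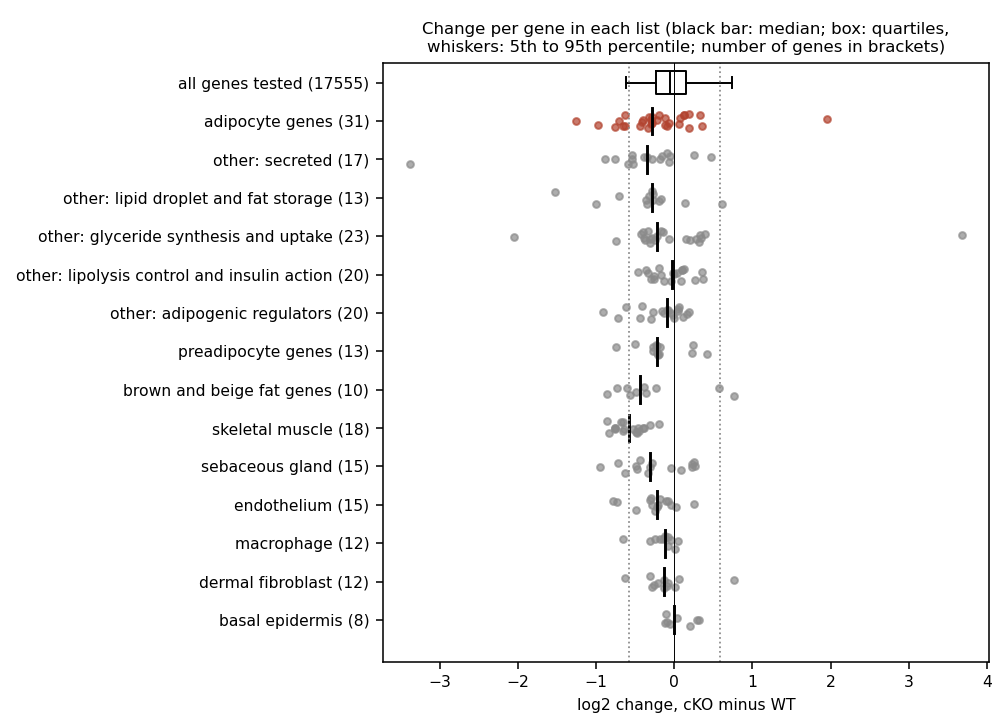
Log2 change (cKO minus WT, x axis) of each gene in the adipocyte set, the lists of other adipocyte genes and the marker lists of other skin cells, with all genes tested as a box; black bars are medians. The hair shaft list, between 4.09 and 10.44, lies off the scale and is not drawn.

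Markers of several other cell types changed too, some up and some down, and their part in the adipocyte results was not tested. Over all genes, 4.82% fell and 5.67% rose. All 11 hair shaft and inner root sheath genes tested rose, with a summed scaled signal of 312 to 315 in cKO and 1.52 to 1.63 in WT, although both groups are labelled telogen; 7 of the 11 were well above background on all arrays. Hair and fat genes were compared between the same 2 pools, so effects of hair cycle stage and of genotype cannot be told apart. Of 18 skeletal muscle genes 9 fell (median -0.58), led by Neb, Casq1 and Myoz1 (1.82-fold, 1.79-fold and 1.69-fold). The summed muscle signal was 1681 to 1683 in cKO and 2272 to 2412 in WT. This bears on genes that muscle also expresses, such as Slc2a4, Car3, Fitm1, Cox7a1 and Cox8b. The part of muscle in the other fat genes, Gpd1 and Rxrg included, was not tested. With quantile normalization Myoz1 was not called (-0.57).

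Of 15 sebaceous gland markers tested, 10 had values below 0 and 3 fell, namely Fasn (fatty acid synthase, 1.94-fold), Soat1 (a sterol acyltransferase, 1.64-fold) and Pparg, which together with Cidea belongs both to this list and to the adipocyte genes. The summed signal of the 15 was 250 to 255 in cKO and 329 to 348 in WT. Emcn and Lyve1 of 15 endothelial genes fell 1.73-fold and 1.66-fold, Lyve1 not with the mean of its probes (-0.55), and the sums were 37.0 to 37.3 in cKO and 41.1 to 41.5 in WT. Fcgr1 of 12 macrophage genes fell 1.57-fold, with sums of 167 to 170 in cKO and 183 to 184 in WT. Among 12 dermal fibroblast genes Dpt rose 1.70-fold and Lum fell 1.55-fold, though Lum was not called with quantile normalization (-0.44) or with normexp and quantile normalization (-0.43), and the sums were 1009 on both cKO arrays and 1057 to 1148 in WT. None of the 8 basal epidermis genes was called (median -0.01; sums 337 to 343 in cKO and 333 to 351 in WT).

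**Figure D5:**
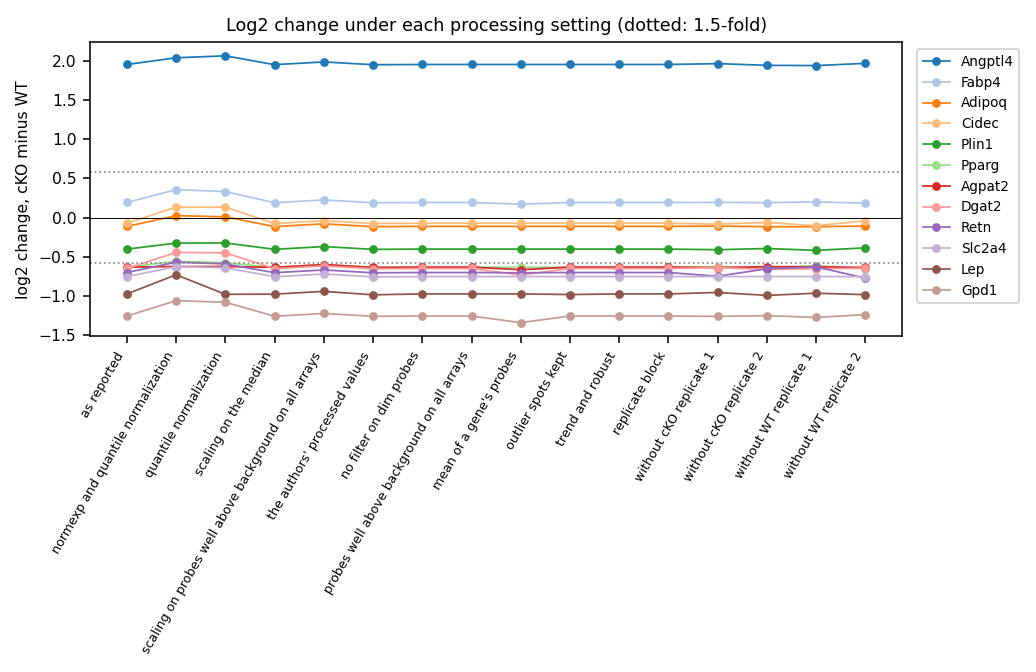
Log2 change (cKO minus WT, y axis) of 12 adipocyte genes under the reported processing and 15 alternatives (x axis); dotted lines mark 1.5-fold. Angptl4, Lep, Gpd1, Slc2a4 and Agpat2 stay beyond 1.5-fold in all of them, while Dgat2 and Pparg move inside it under both quantile settings and Retn under the one with normexp.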

How the data were processed

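Each genotype was 1 pool of polyA RNA from 3 mice on 2 one-colour (Cy3) arrays, all on 1 slide with 1 scan time, so no batch could be fitted. The deposited spot intensity had a spatial trend subtracted as background and a multiplicative trend removed within each array, with no local background step, in Agilent software (Feature Extraction, version 10.7.3.1) per the file headers. The deposited value table held the same intensity divided by 1 number per array, a linear ratio near the 75th percentile; how it was made is not stated. Control spots were dropped, log2 intensity was taken, the 75th percentile over 43379 non-control spots was subtracted, and spots flagged as outliers were treated as missing. Probes had to exceed background clearly on the 2 duplicates of either group. The brightest kept probe stood for a gene. Names came from a RefSeq table of GRCm38.p6, used for names and promoter windows; probe coordinates (mm9) are those of the files, and the exon or UTR under a probe was not determined. Groups were compared with limma 3.58.1 (lmFit and eBayes, two-sided) in R 4.3.3, with Benjamini-Hochberg adjustment over 17555 genes, after the fit had been tested on simulated data. Promoters were searched in Python 3.11.15 with pandas 2.3.3. The plots were drawn with matplotlib 3.10.9. With 1 pool per genotype the spread between mice was not measured, and 2 arrays per pool limit the precision of the spread between arrays. The members and lists were chosen with earlier results of these data known. Genes named are all members, up to 4 called genes (otherwise the 2 brightest) of each list of other fat genes, up to 3 called genes of each marker list (the hair list is given by its counts alone) and Fgf18. Alternatives were other background corrections, normalizations and scalings, other probe filters, the mean of probes, outlier spots kept, a trend with robust estimation, a replicate block, single arrays left out and other fold thresholds.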

Additional observations from a re-analysis of the deposited data

How the results depend on the processing

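With normexp and quantile normalization, 4 adipocyte genes were called lower (Lep, Slc2a4, Gpd1 and Agpat2), as were 483 of all genes and 9 marker genes, against 7, 847 and 16 as reported; with quantile normalization alone 8 marker genes were. Without a fold threshold the calls were 19 lower and 5 higher for adipocyte genes, 48 and 17 for other fat genes, 49 and 20 for markers, and 5907 and 3890 for all genes. At 2-fold they were 1 lower adipocyte gene (Gpd1), 4 lower and 1 higher other fat genes, 0 lower markers, and 150 lower and 515 higher of all genes. The median log2 change of the adipocyte genes was -0.12 with normexp and quantile, -0.13 with quantile normalization, -0.25 when scaled on probes well above background and -0.25 without the filter on dim probes. With single arrays left out it lay between -0.29 and -0.25, adipocyte calls were 7 lower and 1 higher each time, and other fat genes called higher numbered 1 (without WT replicate 1) or 2. Sign reversals among named genes were those of Adipoq (0.024 with normexp and quantile, 0.0090 with quantile), Cfd (0.083 with normexp and quantile), Cidec (0.13 in both) and Cebpa (0.0076 with normexp and quantile). The cause was not tested. Among scalings, the median of all genes moved by at most 0.04 on the log2 scale, and it moved by -0.11 without the filter on dim probes. The numbers of the labels did not pair the arrays (correlation of deviations across genes -0.04), and with the replicate block 7 adipocyte genes were called lower and 1 higher, with 829 lower and 986 higher of all genes. Alternatives cannot stand in for the unmeasured spread between mice.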
